A study of Mus musculus with 12 samples.

Results

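Liver RNA was compared between mice that trained with RE on a high-fat diet (HFD+RE) and mice kept on a normal diet (NC), to describe what still differed from normal diet after the training and which genes were called in this comparison alone. The comparison used 6 of the 12 RNA-seq libraries of the series, 3 per group, taken by their labels: HFD+RE 3, 4 and 5 against NC 2, 4 and 5. All were from male C57BL/6 mice, an inbred laboratory strain, that entered the study at 6 weeks of age and had 1 week of adaptation. NC mice then stayed on normal diet. HFD+RE mice had the high-fat diet D12492 for 8 weeks, and were then trained for at least 12 weeks. The labels give RE, and AE of the other exercise group (HFD+AE), only as abbreviations. They name no normal-diet group that trained, so diet and training cannot be told apart in HFD+RE against NC. A high-fat group without exercise (HFD) and HFD+AE, with 3 libraries each, entered the same model. Neither the time of day at which livers were taken nor the feeding state at that time is given in the sources used here. They do not state that each library is a different animal, and the p-values rest on the spread between libraries, whatever its source.

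Hepatocytes make most of the proteins of blood plasma, and these are folded in the endoplasmic reticulum by chaperones and disulfide isomerases whose genes rise together when unfolded protein accumulates. A separate set of chaperones in the cytosol and nucleus is driven by heat shock factor. Liver also runs a circadian clock, in which the activators Arntl, Clock and Npas2 drive their own repressors and output genes such as Dbp, and many of its cytochrome P450 genes differ between the sexes and respond to nuclear receptors. High-fat feeding of mice is known to load the liver with triglyceride and to shift all of these programmes.

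Total counts were 56032647, 47823607 and 77665729 in NC 2, 4 and 5 and 51178332, 61089139 and 58163665 in HFD+RE 3, 4 and 5. Alb, the gene of serum albumin, held 7.63% to 9.82% of the counts in NC and 6.05% to 9.10% in HFD+RE. Of 15 hepatocyte identity genes, 1 fell (6.67%, against 1.28% of all genes tested) and none rose, and the median log2 change was -0.25. None of the 15 had a count of 0 in any of the 6 libraries. HFD+RE 3 stood apart from HFD+RE 4 and 5. On the first principal component of all 12 libraries, which held 40.6% of the variance, it lay at -36.6, beside NC at -61.1, -72.7 and -40.2, while HFD+RE 4 and 5 lay at 50.4 and 52.6. The rank correlation across genes between level and gene length was 0.22 in HFD+RE 3, against -0.29 and -0.31 in HFD+RE 4 and 5 and 0.08 to 0.21 in NC. With GC content it was -0.22, against 0.34 and 0.18, and -0.21 to -0.14 in NC. In HFD+AE 1 and 2 these correlations were 0.29 and 0.29 with length and -0.28 and -0.24 with GC content. In HFD+AE 3 they were -0.03 and 0.48. Mitochondrial rRNA held 0.685% of the counts in HFD+RE 3 and 1.11% and 1.71% in HFD+RE 4 and 5, with 0.708% to 0.924% in NC. Results are therefore given with and without HFD+RE 3 where they rest on it.

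In HFD+RE against NC, 724 of 18305 genes tested (3.96%) passed a Benjamini-Hochberg adjusted p of 0.05 in edgeR's quasi-likelihood test. These are the genes said to have risen or fallen: 489 rose (2.67%) and 235 fell (1.28%), and 564 of the 724 differed at least 2-fold. Genes that fell included endoplasmic reticulum and heat shock chaperones, and clock and cytochrome P450 genes moved in both directions. All adjusted p-values of single genes are from that test, and each level is a CPM value, a count scaled to its library size with the factors of the trimmed mean of M values (TMM). At an unadjusted p under 0.05 there were 4476 genes. The 3 libraries of HFD+RE lay all above those of NC in 13.7% of the tested genes and all below in 12.4%, and in 715 of the 724 called genes the groups did not overlap. The number of called genes depended on single libraries. It was 3983 (21% of the genes then tested, with 2180 or 11.5% that rose and 1803 or 9.51% that fell) without HFD+RE 3, and 719 of the 724 were among them. It was 112 without HFD+RE 4, 182 without HFD+RE 5, 143 without NC 4, 275 without NC 2 and 456 without NC 5. Libraries of the other groups, which share the estimate of spread, moved it as well, to 384 without HFD 1, 448 without HFD+AE 2 and 1367 without HFD+AE 3. Of the 724, HFD+RE 3 was the library nearest to the NC mean for 458, HFD+RE 4 for 126 and HFD+RE 5 for 140. With the NC and HFD+RE libraries fitted alone, 110 genes were called. Of 72 called genes taken by the naming rule, 70 were called without HFD+RE 3, 26 without HFD+RE 4, 30 without HFD+RE 5, 41 without NC 2, 32 without NC 4, 50 without NC 5 and 25 with the 6 libraries alone. Under every one of the 21 alternatives tried, 6 genes were called: Osbpl3, Stap1, Themis, Med12l, Gm11752 and Cyp3a11.

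**Figure D1:**
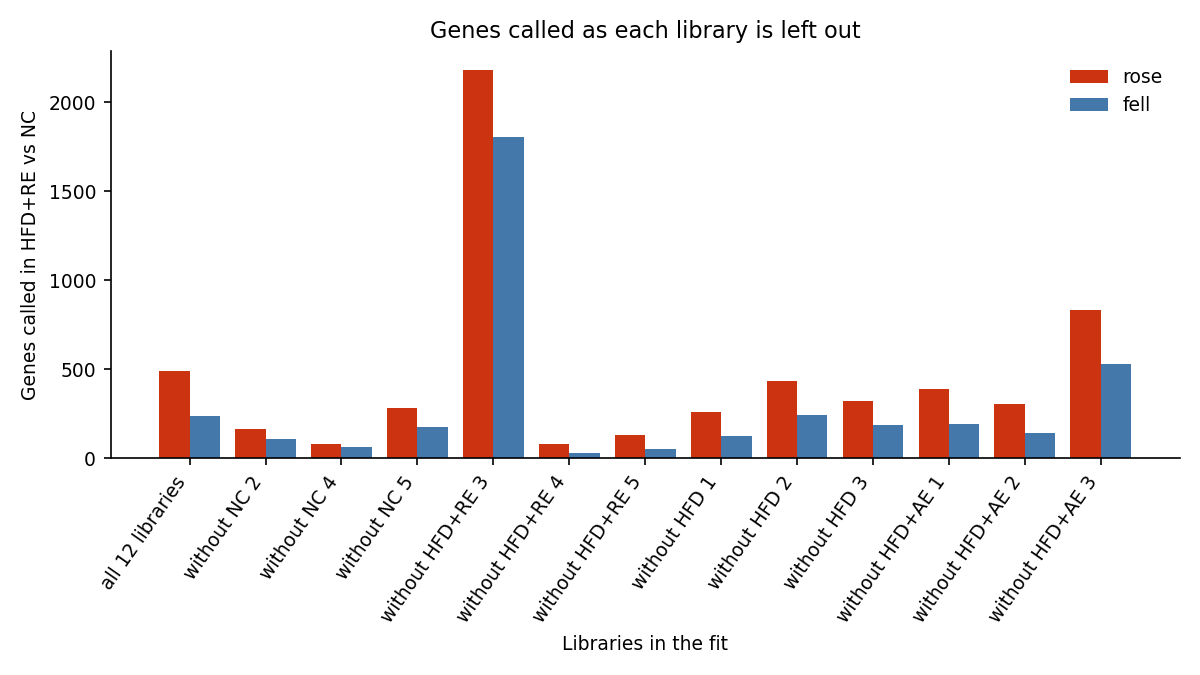
Bars give the number of genes that rose (red) and fell (blue) in HFD+RE against NC at an adjusted p below 0.05, with all 12 libraries in the fit and with each library left out in turn. The count was 724 with all libraries, between 112 and 456 without any 1 of NC 2, 4 and 5 or HFD+RE 4 and 5, and 3983 without HFD+RE 3.

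Chaperones of the endoplasmic reticulum were lower in HFD+RE than in NC. Of 30 genes of the unfolded protein and integrated stress response, 13 fell (43.3%, against 1.28% of all genes tested) and none rose. The median log2 change was -1.02, against 0.017 over all genes tested. HFD+RE lay below NC without overlap for 20 of the 30 (66.7%, against 12.4% of all genes). The 13 that fell were Hspa5, Hsp90b1, Hyou1, Dnajb11, Dnajc3, Sdf2l1, Creld2, Manf, Pdia3, Pdia4, Pdia6, Derl3 and Hspa13, and most encode chaperones, their partners or disulfide isomerases of the lumen. With HFD+RE 3 left out, 18 of 30 fell (60%, against 9.51% of all genes) and 1 rose (3.33%, against 11.5%). The count was 7 without NC 2, 3 without NC 4, 7 without HFD 1, 2 without HFD+RE 4 and 3 without HFD+RE 5.

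The promoters of 3 of these genes are shown because they carry the ER stress element, the sequence CCAAT, then any 9 bases, then CCACG, through which ATF6 and NF-Y are known to act on this group. Each is the 250 bases before the start site in RefSeq, build GRCm38.p6, written along the gene's own strand with the element in capitals. Hspa5 (chr2:34771840-34772089, plus strand) has 1 match.
Hspa5: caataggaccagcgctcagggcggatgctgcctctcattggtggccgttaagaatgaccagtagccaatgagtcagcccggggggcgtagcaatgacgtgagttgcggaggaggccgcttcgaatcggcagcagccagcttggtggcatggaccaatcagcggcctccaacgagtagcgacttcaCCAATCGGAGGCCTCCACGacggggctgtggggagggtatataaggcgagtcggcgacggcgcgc
Hsp90b1 (chr10:86705445-86705694, minus strand) has 2 matches, the second of them on the opposite strand.
Hsp90b1: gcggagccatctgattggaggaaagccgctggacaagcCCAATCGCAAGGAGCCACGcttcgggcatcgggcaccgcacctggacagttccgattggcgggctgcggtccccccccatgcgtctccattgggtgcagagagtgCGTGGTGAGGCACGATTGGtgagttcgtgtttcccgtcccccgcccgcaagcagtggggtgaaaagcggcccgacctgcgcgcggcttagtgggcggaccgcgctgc
Creld2 (chr15:88819396-88819645, plus strand) has 1 match on the opposite strand.
Creld2: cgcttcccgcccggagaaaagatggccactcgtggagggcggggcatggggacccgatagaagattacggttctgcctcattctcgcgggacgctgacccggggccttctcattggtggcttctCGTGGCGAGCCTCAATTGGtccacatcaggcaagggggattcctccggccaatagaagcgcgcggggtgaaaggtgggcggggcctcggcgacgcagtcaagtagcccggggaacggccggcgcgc
Searched on both strands, the element lay in 19 of the 11928 promoters of tested genes in the table (0.159%). It lay in 8 of the 26 promoters of this list and in 6 of the 10 whose gene fell. A match describes the letters only, and start sites in RefSeq can differ from those of the counted genes: by 120 bases for Hspa5 and 65 for Hsp90b1.

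Hspa5, the main Hsp70 chaperone of the lumen (BiP, chr2:34771970-34777547 on mm10), was at 1108, 2929 and 1554 CPM in NC and at 455, 285 and 275 CPM in HFD+RE. All 3 HFD+RE libraries lay below the lowest NC library, and NC 4 was the highest of the 6. The change was -2.46 on the log2 scale (SE 0.43, adjusted p = 0.012), with adjusted p = 0.055 without HFD+RE 4 and 0.052 without HFD+RE 5.
Hyou1, a large chaperone that helps Hspa5 (chr9:44379490-44392369), was at 313, 809.9 and 373 CPM in NC and at 98, 82.4 and 82.6 CPM in HFD+RE. Its groups were separated by more than 3-fold at their nearest libraries, and the call (log2 change -2.51, SE 0.38, adjusted p = 0.006) held with any single library left out. Creld2, a disulfide isomerase-like protein (chr15:88819646-88826683), was at 49.4, 218 and 95.7 CPM in NC and at 12.1, 18.3 and 17 CPM in HFD+RE (log2 change -2.94, SE 0.48, adjusted p = 0.009). Here too the 3 HFD+RE libraries were close together while NC 4 was far above NC 2, and the call held with any library left out.

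Hsp90b1, the Hsp90 chaperone of the lumen known as GRP94, was at 740.3, 1400.1 and 704 CPM in NC and at 394, 306 and 304 CPM in HFD+RE (log2 change -1.50, SE 0.31, adjusted p = 0.021). Manf, a secreted stress-induced protein, was at 82.1, 192 and 120.1 CPM in NC and at 27.4, 40.6 and 38.7 CPM in HFD+RE (log2 change -1.89, SE 0.34, adjusted p = 0.013). Sdf2l1, which joins the Hspa5 complex, was at 47.5, 107 and 43.1 CPM in NC and at 6.05, 17.4 and 15.4 CPM in HFD+RE (log2 change -2.35, SE 0.53, adjusted p = 0.03). In each of these 3 genes the groups did not overlap and NC 4 was the highest library. The isomerases Pdia3, Pdia4 and Pdia6 fell by 1.17, 1.53 and 1.37 on the log2 scale (adjusted p = 0.03, 0.043 and 0.03). Derl3, which serves the removal of misfolded proteins from the lumen, was at 8.18, 57 and 4.9 CPM in NC and at 0.605, 2.47 and 1.7 CPM in HFD+RE (log2 change -3.87, SE 0.97, adjusted p = 0.043). It was highest in NC 4, and the call was lost without HFD+RE 3 (adjusted p = 0.084), without NC 4 (0.21) and in most other fits that left out a library.

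The listed genes of the branch of this response that signals to translation and to amino acid supply gave no calls. Ddit3, the transcription factor CHOP, had a log2 change of -0.23 (adjusted p = 0.61), and Atf4, the main activator of the integrated stress response, 0.53 (adjusted p = 0.16). Trib3 and Chac1, which are targets of that branch, had log2 changes of 0.46 and 0.80 (adjusted p = 0.54 and 0.25). Xbp1, whose splicing marks the separate IRE1 branch, was not called either (log2 change -0.46, adjusted p = 0.18), and counts per gene do not tell its spliced form apart.

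Heat shock chaperones were lower as well. Of 18 genes of this group, 6 fell (33.3%, against 1.28% of all genes tested) and none rose, with a median log2 change of -0.92. Without overlap, 9 genes were lower (50%, against 12.4% of all genes) and 1 was higher (5.56%, against 13.7%). The 6 were Hspa1a, Hspa1b, Hspa8, Hsph1, Hsp90aa1 and Chordc1. With HFD+RE 3 left out, 9 of 18 fell (50%, against 9.51% of all genes). The count was 3 without NC 4, 2 without HFD+RE 5 and 0 without HFD+RE 4.

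Hspa1b encodes the stress-inducible Hsp70 of the cytosol (chr17:34956436-34959238), and its promoter is shown for its match to the inverted pair of heat shock element units, GAANNTTC, in capitals (chr17:34959239-34959488, minus strand, 250 bases before the start in RefSeq, GRCm38.p6).
Hspa1b: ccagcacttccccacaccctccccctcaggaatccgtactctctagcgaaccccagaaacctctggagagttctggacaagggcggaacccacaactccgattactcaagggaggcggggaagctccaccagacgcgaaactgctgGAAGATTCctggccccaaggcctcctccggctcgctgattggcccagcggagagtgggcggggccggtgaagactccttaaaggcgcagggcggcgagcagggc
The motif, which reads the same on both strands, lay in 5 of 13 promoters of this list and in 2 of the 4 whose gene fell, against 5.11% of the promoters of tested genes. Hspa1b was at 14.8, 69.6 and 79.7 CPM in NC and at 5.07, 3.85 and 6.11 CPM in HFD+RE. The 3 HFD+RE libraries were uniformly low, whereas NC 2 lay well below NC 4 and 5, and the groups did not overlap. The log2 change was -3.45 (SE 0.57, adjusted p = 0.0092). It was -3.46 (adjusted p = 0.015) without HFD+RE 3, and the adjusted p was 0.052 without HFD+RE 4. The near-identical copy Hspa1a can share its reads. The summed level of both was 15.9, 75.4 and 90.3 CPM in NC and 5.52, 4.16 and 6.52 CPM in HFD+RE, a log2 ratio of means of -3.49.

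Hsph1, the Hsp110 partner of Hsp70 (chr5:149614287-149636376), was at 78.9, 235 and 160.1 CPM in NC and at 44, 25.6 and 19.4 CPM in HFD+RE (log2 change -2.41, SE 0.42, adjusted p = 0.012). Hsp90aa1, the inducible cytosolic Hsp90, was at 214, 518 and 301 CPM in NC and at 117, 115 and 121 CPM in HFD+RE (log2 change -1.55, SE 0.30, adjusted p = 0.017). Hspa8, the constitutive Hsp70, was at 1103, 1834 and 1484 CPM in NC and at 795, 816 and 741 CPM in HFD+RE (log2 change -0.91, SE 0.21, adjusted p = 0.03). The HFD+RE libraries of Hsp90aa1 and Hspa8 lay close together and below every NC library. Calls were lost without HFD+RE 4 for Hsph1 (adjusted p = 0.055), Hsp90aa1 (0.071) and Hspa8 (0.1), and without NC 4 for Hsp90aa1 (0.073) and Hspa8 (0.14). The mitochondrial chaperones Hspd1 and Hspe1 gave no calls (log2 changes -0.43 and 0.16, adjusted p = 0.3 and 0.74), nor did the Hsp40 gene Dnajb1 (-0.90, adjusted p = 0.078).

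Clock genes moved in both directions. Of 21 clock genes and outputs, 3 fell (14.3%, against 1.28% of all genes tested): Arntl, Clock and Npas2. Another 3 rose (14.3%, against 2.67%), Dbp and Per3 among them, and the median log2 change was 0.58. The 3 that fell encode the activators of the loop, which bind DNA as pairs of Arntl with Clock or Npas2. Without HFD+RE 3, 5 rose (23.8%, against 11.5% of all genes) and 4 fell (19%, against 9.51%). The numbers that rose and fell were 1 and 1 without NC 2, without NC 4, without HFD+RE 4 or without HFD+RE 5, 8 and 3 without NC 5, and 5 and 3 without HFD+AE 3.

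**Figure D2:**
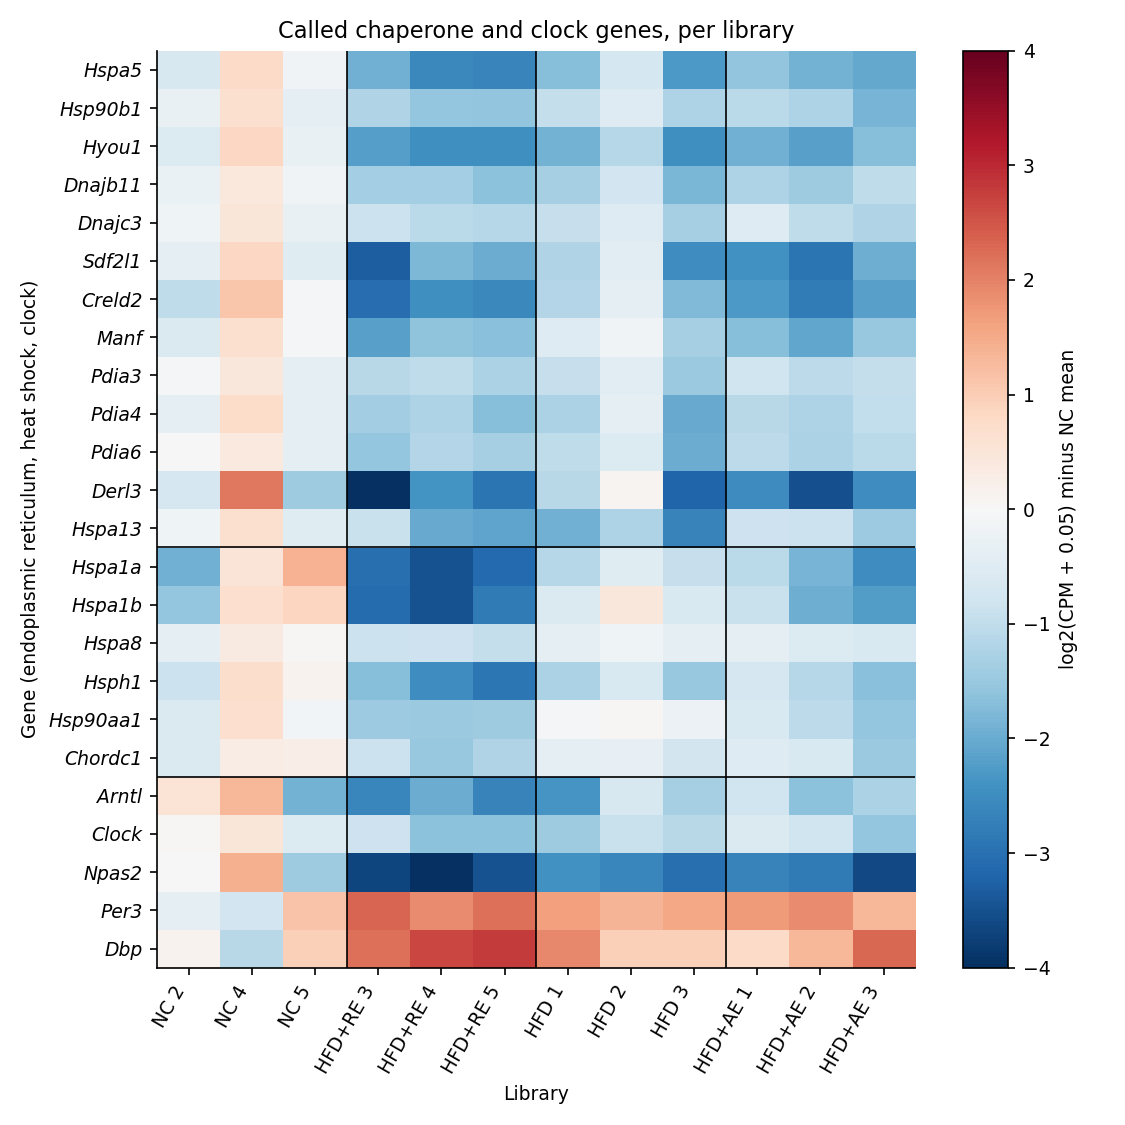
Colours give log2(CPM + 0.05) minus the NC mean of the same quantity, per library (columns, by group) and for the genes called in HFD+RE against NC among endoplasmic reticulum chaperones and heat shock chaperones, with 5 of the called clock genes (rows, in that order). Chaperones are blue in the 3 HFD+RE libraries, and NC 4 is the reddest NC library for most endoplasmic reticulum genes; in the clock rows NC 5 has the colour nearest to HFD+RE for Arntl, Npas2, Per3 and Dbp.

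Arntl, known as BMAL1 (chr7:113207465-113314126), was at 10.8, 18.5 and 1.96 CPM in NC and at 1.15, 1.8 and 1.11 CPM in HFD+RE (log2 change -2.94, SE 0.65, adjusted p = 0.029). NC 5 was close to the highest HFD+RE library, while NC 2 and 4 were several-fold above it. Npas2 was at 1.04, 2.94 and 0.368 CPM in NC and at 0.0378, 0 and 0.0499 CPM in HFD+RE, from 219 counts in NC and 5 counts in HFD+RE (log2 change -5.50, SE 0.90, adjusted p = 0.009). Dbp, an output transcription factor (chr7:45705088-45710203), was at 20.1, 8.29 and 35.3 CPM in NC and at 83.3, 114 and 127 CPM in HFD+RE (log2 change 2.35, SE 0.49, adjusted p = 0.023), and Per3, a repressor of the loop, was at 11.9, 9.09 and 34.6 CPM in NC and at 78.9, 57.8 and 71.9 CPM in HFD+RE (log2 change 1.91, SE 0.39, adjusted p = 0.021). In both genes NC 5 was the NC library nearest to HFD+RE.

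The calls of Arntl, Clock, Dbp and Per3 rested on single libraries, while that of Npas2 held with any library left out. Without NC 4 the adjusted p was 0.12 for Arntl, 0.14 for Clock, 0.075 for Dbp and 0.074 for Per3. The repressors Per1 and Per2 gave no calls (log2 changes 0.35 and 0.80, adjusted p = 0.43 and 0.14), nor did Nr1d1, which represses Arntl (-0.92, adjusted p = 0.14). Ciart, a repressor of the loop, was at 4.89, 0.827 and 30.0 CPM in NC and at 29.7, 36.5 and 38.3 CPM in HFD+RE (1.54, adjusted p = 0.24). Its NC libraries spanned a wide range, with NC 5 at the level of HFD+RE, and the adjusted p was 0.012 without NC 5.

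Cytochrome P450 genes moved in both directions. Of 37 P450 and related genes of xenobiotic metabolism, 4 rose and 5 fell. Thus 24.3% were called, against 3.96% of all genes tested, and the median log2 change was -0.18. Cyp3a11, the main drug-metabolizing P450 of the 3a family in mouse liver (chr5:145854426-145879964), was at 4551, 5926 and 3307 CPM in NC and at 679, 419 and 410.2 CPM in HFD+RE. All 3 HFD+RE libraries lay far below NC, and the change (log2 change -3.19, SE 0.38, adjusted p = 0.003) was called under every alternative. Cyp2c55 was at 7.79, 6.9 and 8.5 CPM in NC and at 1.25, 0.581 and 0.3 CPM in HFD+RE (log2 change -3.45, SE 0.46, adjusted p = 0.0037) and its call held with any library left out. Cyp3a16 and Cyp3a44, of the female-biased genes, fell too (log2 changes -3.08, adjusted p = 0.01 and -3.50, adjusted p = 0.0052). Cyp2a22 was at 0.186, 1.04 and 1.7 CPM in NC and at 10.8, 18.1 and 5.61 CPM in HFD+RE (log2 change 3.53, SE 0.57, adjusted p = 0.0085).
Cyp2b9, a P450 expressed mainly in female liver (chr7:26173411-26210661), was at 0.409, 1.15 and 1.45 CPM in NC and at 8.77, 201 and 8.27 CPM in HFD+RE. HFD+RE 4 was more than 20 times as high as HFD+RE 3 and 5, which still lay above every NC library. The change was 6.16 on the log2 scale (SE 1.16, adjusted p = 0.015), with adjusted p = 0.056 without NC 2 and 0.072 without NC 4. These P450 genes have near-identical relatives that can share reads, so their single values are uncertain.

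Of 53 genes of conjugating enzymes and carboxylesterases, 4 rose and 3 fell (13.2% called, against 3.96% of all genes tested). Without HFD+RE 3 the shares were near those of all genes: 6 rose (11.3%, against 11.5%) and 6 fell (11.3%, against 9.51%). Ces2a, a carboxylesterase that splits lipid esters and drugs, was at 399.8, 428 and 307 CPM in NC and at 171, 145 and 122 CPM in HFD+RE (log2 change -1.38, SE 0.22, adjusted p = 0.0076), and Ces2c was at 20.9, 35 and 27.8 CPM in NC and at 10.5, 10.7 and 7.64 CPM in HFD+RE (log2 change -1.54, SE 0.24, adjusted p = 0.0074). In both, the highest HFD+RE library lay well below the lowest NC library. Sult1c2, a sulfotransferase, was at 3.59, 3.2 and 2.55 CPM in NC and at 8.45, 8.34 and 6.64 CPM in HFD+RE (log2 change 1.33, SE 0.20, adjusted p = 0.0053). The calls of these 3 genes held with any library left out.

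Among 27 genes with higher expression in male liver, 6 fell and 2 rose (29.6% called, median log2 change -0.99). Among 19 tested of 22 female-biased genes, 4 rose and 3 fell (36.8% called, median 1.15). Of all genes tested, 3.96% were called. Elovl3, a fatty acid elongase of this male-biased group, was at 281, 469 and 118 CPM in NC and at 34.3, 34.9 and 41.3 CPM in HFD+RE (log2 change -2.97, SE 0.40, adjusted p = 0.0037). The HFD+RE libraries agreed closely at a level below the lowest NC library, and the call held with any library left out. Cyp7b1, an oxysterol hydroxylase, was at 252, 361 and 222 CPM in NC and at 119.7, 58.5 and 84.5 CPM in HFD+RE (log2 change -1.67, SE 0.35, adjusted p = 0.022), with adjusted p = 0.096 without HFD+RE 4, 0.083 without HFD+RE 5 and 0.092 without NC 4. Cyp17a1, a steroid hydroxylase higher in females (chr19:46667165-46673172), was at 7.83, 4.92 and 16.1 CPM in NC and at 62.2, 54.6 and 57.7 CPM in HFD+RE (log2 change 2.59, SE 0.37, adjusted p = 0.0051), and its 3 HFD+RE libraries were almost equal. Mup1, of the major urinary proteins, was at 121, 4065 and 55.6 CPM in NC and at 24.6, 22.5 and 41.1 CPM in HFD+RE (log2 change -5.59, SE 1.35, adjusted p = 0.038). Its NC mean came from NC 4, and the adjusted p was 0.22 without NC 4 and 0.09 without HFD+RE 3. Summed over 20 Mup genes, which share reads, the level was 32637 ± 5745 CPM (SD, n = 3) in NC and 20012 ± 4872 CPM in HFD+RE.

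**Figure D3:**
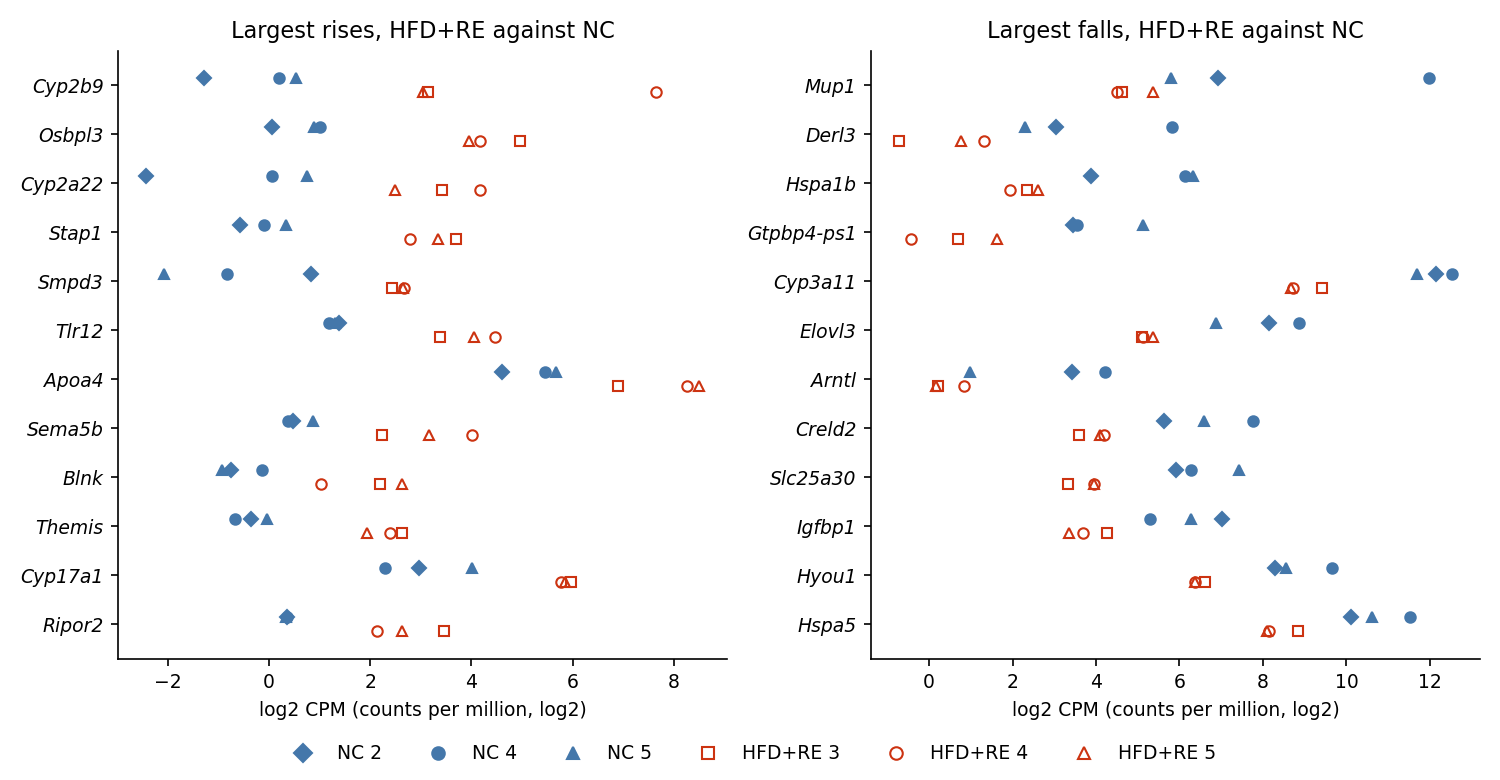
Points give log2 CPM per library for the 12 genes that rose (left) and the 12 that fell (right) with the largest changes, NC filled and HFD+RE open, with 1 symbol per library number within its group. In each row the 3 HFD+RE libraries lie on 1 side of the 3 NC libraries, as the choice of these genes fixes. The widest spreads are those of Cyp2b9 in HFD+RE and Mup1 in NC.

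Hsd3b5, a steroid dehydrogenase isoform of male liver, was not called against NC: it was at 211, 191 and 89.2 CPM in NC and at 124, 25.2 and 112 CPM in HFD+RE (log2 change -0.91, SE 0.57, adjusted p = 0.33). HFD+RE 4 was the lowest of the 6, and HFD+RE 3 and 5 lay within the NC range. In HFD it was at 0.272, 0.422 and 0.343 CPM, and the difference of HFD+RE from HFD was 7.97 on the log2 scale (SE 0.81, adjusted p = 0.003). It was 1 of 2 genes (0.0109% of those tested) that passed in HFD+RE against HFD. The other was Themis, a regulator of thymocyte selection (chr10:28668360-28883818), at 0.781, 0.631 and 0.973 CPM in NC and at 6.15, 5.25 and 3.84 CPM in HFD+RE and 24.2, 27.6 and 21.2 CPM in HFD. Themis thus lay between NC and HFD, with no overlap on either side: it was higher than NC by 2.66 (SE 0.28, adjusted p = 0.0011) and its difference from HFD was -2.26 (SE 0.26, adjusted p = 0.0063). At an unadjusted p under 0.05, 1605 genes differed between HFD+RE and HFD, and DESeq2 called 185.

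Other genes with large rises included several that are known from immune cells. Osbpl3, an oxysterol-binding protein (chr6:50293330-50456201), was at 1.04, 2.02 and 1.85 CPM in NC and at 31.1, 18 and 15.4 CPM in HFD+RE (log2 change 3.71, SE 0.33, adjusted p = 0.00068). Stap1, a signalling adaptor best known from B cells, was at 0.669, 0.935 and 1.26 CPM in NC and at 12.9, 6.94 and 10.1 CPM in HFD+RE (log2 change 3.37, SE 0.35, adjusted p = 0.0011). Both were called under every alternative, and HFD+RE 3 was the highest library in each. Tlr12, a Toll-like receptor gene, was at 2.6, 2.26 and 2.46 CPM in NC and at 10.4, 22.1 and 16.5 CPM in HFD+RE (log2 change 2.74, SE 0.35, adjusted p = 0.0034), and Blnk, an adaptor of B-cell receptor signalling, was at 0.595, 0.914 and 0.526 CPM in NC and at 4.56, 2.05 and 6.19 CPM in HFD+RE (log2 change 2.66, SE 0.41, adjusted p = 0.0063). In both, every HFD+RE library was above every NC library. Sema5b, a semaphorin, rose by 2.71 (adjusted p = 0.0052).

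None of 15 T and NK cell markers passed, with or without HFD+RE 3, and their summed level was 6.62 to 18.0 CPM in NC and 9.49 to 14.4 CPM in HFD+RE. Of 11 B and plasma cell markers none passed, but 6 were higher without overlap (54.5%, against 13.7% of all genes), and 3 rose without HFD+RE 3 (27.3%, against 11.5%). Their summed level was 29.5 to 47.2 CPM in NC and 56.5 to 104 CPM in HFD+RE. No B cell marker and 1 T or NK marker (Ncr1) had a count of 0 in any of the 6 libraries. The part of these cells in the rises of Themis, Stap1 and Blnk was not tested, and in bulk liver a change in the number of cells of a type and a change in RNA per cell cannot be told apart.

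Of 34 genes of lipid droplets, storage and fatty acid uptake, Fabp2 and Fitm1 rose and none fell (5.88% called, against 3.96% of all genes tested; median log2 change 0.24). Without HFD+RE 3, 12 rose (35.3%, against 11.5% of all genes) and 2 fell (5.88%, against 9.51%). Fabp2, a fatty acid binding protein, was at 35.5, 49.2 and 51 CPM in NC and at 74.5, 122 and 124 CPM in HFD+RE (log2 change 1.24, SE 0.23, adjusted p = 0.014). Fitm1, which helps to form lipid droplets, was at 11.9, 12.6 and 13.8 CPM in NC and at 14.3, 51.3 and 52.4 CPM in HFD+RE (log2 change 1.62, SE 0.40, adjusted p = 0.04), and HFD+RE 3 lay just above NC while HFD+RE 4 and 5 were more than 3 times as high as NC. Cidec, which promotes the fusion of lipid droplets, was at 5.74, 8.27 and 11.1 CPM in NC and at 9.95, 8.83 and 11.1 CPM in HFD+RE, so the groups overlapped (log2 change 0.25, SE 0.27, adjusted p = 0.58). Plin2, a droplet coat protein, and Cd36, a fatty acid transporter, were not called either (log2 changes -0.22, adjusted p = 0.63 and 0.44, adjusted p = 0.49). Cidea, a relative of Cidec, lay higher without overlap, at 0.0372, 0.087 and 0.158 CPM in NC and at 0.303, 0.545 and 1.6 CPM in HFD+RE, but its adjusted p was 0.05; it was 0.012 without HFD+RE 3. Without HFD+RE 4 the adjusted p was 0.059 for Fabp2 and 0.15 for Fitm1.

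Srebf1 was the gene of fatty acid synthesis that rose. It encodes SREBP1, the transcription factor that drives this pathway (chr11:60199089-60222581), and was at 118, 133 and 41.5 CPM in NC and at 430.5, 323 and 610.0 CPM in HFD+RE (log2 change 2.22, SE 0.39, adjusted p = 0.012). Each HFD+RE library was above the highest NC library by more than 2-fold. Of 25 genes of de novo lipogenesis and desaturation it was the only one to rise, and Elovl3 and Insig2 fell. Thus 12% were called, against 3.96% of all genes tested. Without HFD+RE 3, 6 rose (24%, against 11.5% of all genes) and 3 fell (12%, against 9.51%). Insig2, which holds SREBP proteins in the endoplasmic reticulum, was at 249.8, 252 and 159 CPM in NC and at 77.6, 114 and 111 CPM in HFD+RE (log2 change -1.13, SE 0.21, adjusted p = 0.015; 0.052 without HFD+RE 4). The enzymes that SREBP1 controls gave no calls: Fasn was at 364, 257 and 297 CPM in NC and at 269.6, 200.4 and 864 CPM in HFD+RE (log2 change 0.54, SE 0.46, adjusted p = 0.47), with HFD+RE 5 far above the others, and Scd1 at 8183, 3923 and 8746 CPM in NC and at 3278, 5379 and 8093 CPM in HFD+RE (log2 change -0.32, SE 0.33, adjusted p = 0.57). None of 23 genes of cholesterol synthesis passed (Cyp51 -0.88, adjusted p = 0.19). When HFD+RE 3 was left out, 4 of the 23 rose (17.4%, against 11.5% of all genes) and none fell.

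Of 39 PPARA target and fatty acid oxidation genes, Pdk4 fell and none rose (2.56% called, against 3.96% of all genes tested). Pdk4, a kinase that shuts off pyruvate dehydrogenase in fasting (chr6:5483351-5496309), was at 4.78, 4.92 and 10.3 CPM in NC and at 1.74, 2.11 and 1.51 CPM in HFD+RE (log2 change -1.90, SE 0.37, adjusted p = 0.017). The 3 HFD+RE libraries were close together, and the adjusted p was 0.056 without HFD+RE 4 and 0.075 without HFD+RE 5. Cpt1a, which admits fatty acids to mitochondria, and Fgf21, a fasting hormone, were not called (log2 changes 0.48, adjusted p = 0.25 and 1.47, adjusted p = 0.095). None of 45 nuclear genes of oxidative phosphorylation passed (median log2 change 0.48); without HFD+RE 3, 25 rose (55.6%, against 11.5% of all genes).

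Of 32 bile acid genes, Cyp8b1 and Abcb1a rose and Cyp7b1 and Abcb11 fell (12.5% called, against 3.96% of all genes tested). Without HFD+RE 3, 2 rose (6.25%, against 11.5% of all genes) and 5 fell (15.6%, against 9.51%). Abcb11, the bile salt export pump (chr2:69238282-69342616), was at 837, 843 and 633 CPM in NC and at 433, 297 and 272 CPM in HFD+RE (log2 change -1.21, SE 0.23, adjusted p = 0.016). Cyp8b1, the 12-alpha hydroxylase that sets the share of cholic acid, was at 149, 158 and 70.2 CPM in NC and at 217, 452 and 347 CPM in HFD+RE (log2 change 1.43, SE 0.36, adjusted p = 0.043). Groups did not overlap in either gene. Cyp7a1, which starts the classic route of bile acid synthesis, was at 21, 7.2 and 339 CPM in NC and at 348, 133 and 133 CPM in HFD+RE (log2 change 0.74, SE 0.95, adjusted p = 0.64): NC 5 was far above NC 2 and 4, and the adjusted p was 0.013 without NC 5. Abcg5, of the transporter that moves sterols into bile, was at 76.6, 63.8 and 71.3 CPM in NC and at 119.8, 103 and 135 CPM in HFD+RE (log2 change 0.76, SE 0.16, adjusted p = 0.026). Apoa4, an apolipoprotein, was at 24.3, 43.5 and 50.9 CPM in NC and at 119, 305 and 361 CPM in HFD+RE (log2 change 2.73, SE 0.58, adjusted p = 0.024). Calls were lost without NC 4 for Abcb11 (adjusted p = 0.071), Cyp8b1 (0.094), Abcg5 (0.12) and Apoa4 (0.091).

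Genes that respond to hormones and feeding included glucocorticoid-responsive genes. Of 20, Zbtb16, Pdk4 and Cdkn1a fell (15%, against 1.28% of all genes tested) and none rose. Without HFD+RE 3, 3 fell (15%, against 9.51% of all genes) and none rose (against 11.5%). Without overlap, 4 were lower (20%, against 12.4% of all genes) and none was higher (against 13.7%). Zbtb16, a zinc finger transcription factor, was at 80.6, 107 and 53.3 CPM in NC and at 21, 13.3 and 15.7 CPM in HFD+RE (log2 change -2.26, SE 0.40, adjusted p = 0.012). Igfbp1, a binding protein of insulin-like growth factors that insulin lowers (chr11:7197782-7202546), was at 129.9, 39.5 and 77.3 CPM in NC and at 19.3, 12.8 and 10.2 CPM in HFD+RE (log2 change -2.54, SE 0.52, adjusted p = 0.02). Angptl8, an inhibitor of lipoprotein lipase that feeding raises, was at 20.3, 11.2 and 15.4 CPM in NC and at 40.1, 56.7 and 75.9 CPM in HFD+RE (log2 change 1.88, SE 0.42, adjusted p = 0.03). In each of the 3 the groups were apart, and each call was lost without HFD+RE 4 (adjusted p = 0.057, 0.085 and 0.077). Of 44 genes of amino acid catabolism, Gpt and Prodh rose and Kynu fell (6.82% called, against 3.96% of all genes tested). Their log2 changes were 1.02, 1.21 and -0.94 (adjusted p = 0.038, 0.015 and 0.047). Pck1, of gluconeogenesis, and Igf1 were not called (log2 changes -0.40, adjusted p = 0.27 and 0.22, adjusted p = 0.63). Cps1, of the urea cycle, was at 4973, 4372 and 4759 CPM in NC and at 5283, 1786 and 1102 CPM in HFD+RE (log2 change -0.79, SE 0.51, adjusted p = 0.35), with HFD+RE 3 at the level of NC and adjusted p = 0.02 without it.

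Of 32 genes of fibrosis and extracellular matrix, Dcn, Bgn and Col6a1 rose (9.38%, against 2.67% of all genes tested) and none fell (median log2 change 0.31). Without HFD+RE 3, 3 rose (9.38%, against 11.5%) and 2 fell (6.25%, against 9.51%). Dcn, the proteoglycan decorin, was at 60.2, 65.3 and 71.2 CPM in NC and at 140.0, 112 and 131 CPM in HFD+RE (log2 change 0.96, SE 0.20, adjusted p = 0.02). Bgn, the related biglycan, was at 46.6, 46.8 and 46.7 CPM in NC and at 95.1, 87.6 and 79.6 CPM in HFD+RE (log2 change 0.90, SE 0.22, adjusted p = 0.037). NC libraries lay close together in both and all HFD+RE libraries lay above them, but the calls were lost without NC 2 (adjusted p = 0.073 and 0.1) and without NC 4 (0.086 and 0.13). The fibrillar collagens Col1a1 and Col3a1 were not called (log2 changes 0.41, adjusted p = 0.54 and 0.59, adjusted p = 0.23). Stellate cell markers lay higher beside these genes. Of 12, Hand2 and Dcn rose (16.7%, against 2.67% of all genes tested), and 6 were higher without overlap (50%, against 13.7%). Their summed level was 173 to 197 CPM in NC and 294 to 338 CPM in HFD+RE. None of the 12 was at 0 in any of the 6 libraries, and their part in the matrix genes was not tested.

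Of 19 genes of antigen presentation, H2-Q4 and Psmb9 rose (10.5%, against 2.67% of all genes tested), and of 40 interferon-stimulated genes Ifit3 rose (2.5%); none fell in either list. Without HFD+RE 3, 6 of the 19 rose (31.6%, against 11.5% of all genes), and of the 40, 6 rose (15%) and 2 fell (5%, against 9.51%). Psmb9, a subunit of the immunoproteasome, was at 9.94, 7.05 and 9.32 CPM in NC and at 15.7, 23.8 and 26.9 CPM in HFD+RE (log2 change 1.33, SE 0.26, adjusted p = 0.017), and H2-Q4, of class I histocompatibility, was at 23.7, 19.2 and 24 CPM in NC and at 36.9, 56.4 and 67.7 CPM in HFD+RE (log2 change 1.27, SE 0.25, adjusted p = 0.018). In both, HFD+RE 3 was the HFD+RE library nearest to NC, and without HFD+RE 4 the adjusted p was 0.063 and 0.066. None of 13 Kupffer cell markers passed, with a summed level of 491 to 651 CPM in NC and 203 to 630 CPM in HFD+RE, where HFD+RE 3 was the highest; without it 4 fell (30.8%, against 9.51% of all genes). Cd163, a scavenger receptor of these cells, was at 47.6, 41.3 and 31.8 CPM in NC and at 18.1, 10.4 and 2.9 CPM in HFD+RE (log2 change -1.94, SE 0.53, adjusted p = 0.058), with adjusted p = 0.015 without HFD+RE 3. It was the only 1 of the 13 that was lower without overlap (7.69%, against 12.4% of all genes). Of 13 sinusoidal endothelial markers none passed, and 5 fell without HFD+RE 3 (38.5%, against 9.51% of all genes). Among 13 markers of lipid-associated and recruited macrophages, Cd9 alone fell (7.69%, against 1.28% of all genes tested) and none rose. Its log2 change was -1.20 (SE 0.30, adjusted p = 0.046), while the median of the 13 was 0.18. Without overlap, 2 of the 13 were higher (15.4%, against 13.7% of all genes) and 1 was lower (7.69%, against 12.4%). Trem2, which defines lipid-associated macrophages, was not called (0.49, adjusted p = 0.57). Tnf and the acute phase gene Saa1 were not called (log2 changes -0.09, adjusted p = 0.94 and -1.62, adjusted p = 0.2). Adrb3, of fat cells, rose (1.39, adjusted p = 0.03). Of the 5 fat cell markers tested, Adrb3 among them, 3 were higher without overlap (60%, against 13.7% of all genes) and none lower. Of the genes that define fat cells, Lep had a count of 0 in all 6 libraries and Adipoq in at least 1.

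**Figure D4:**
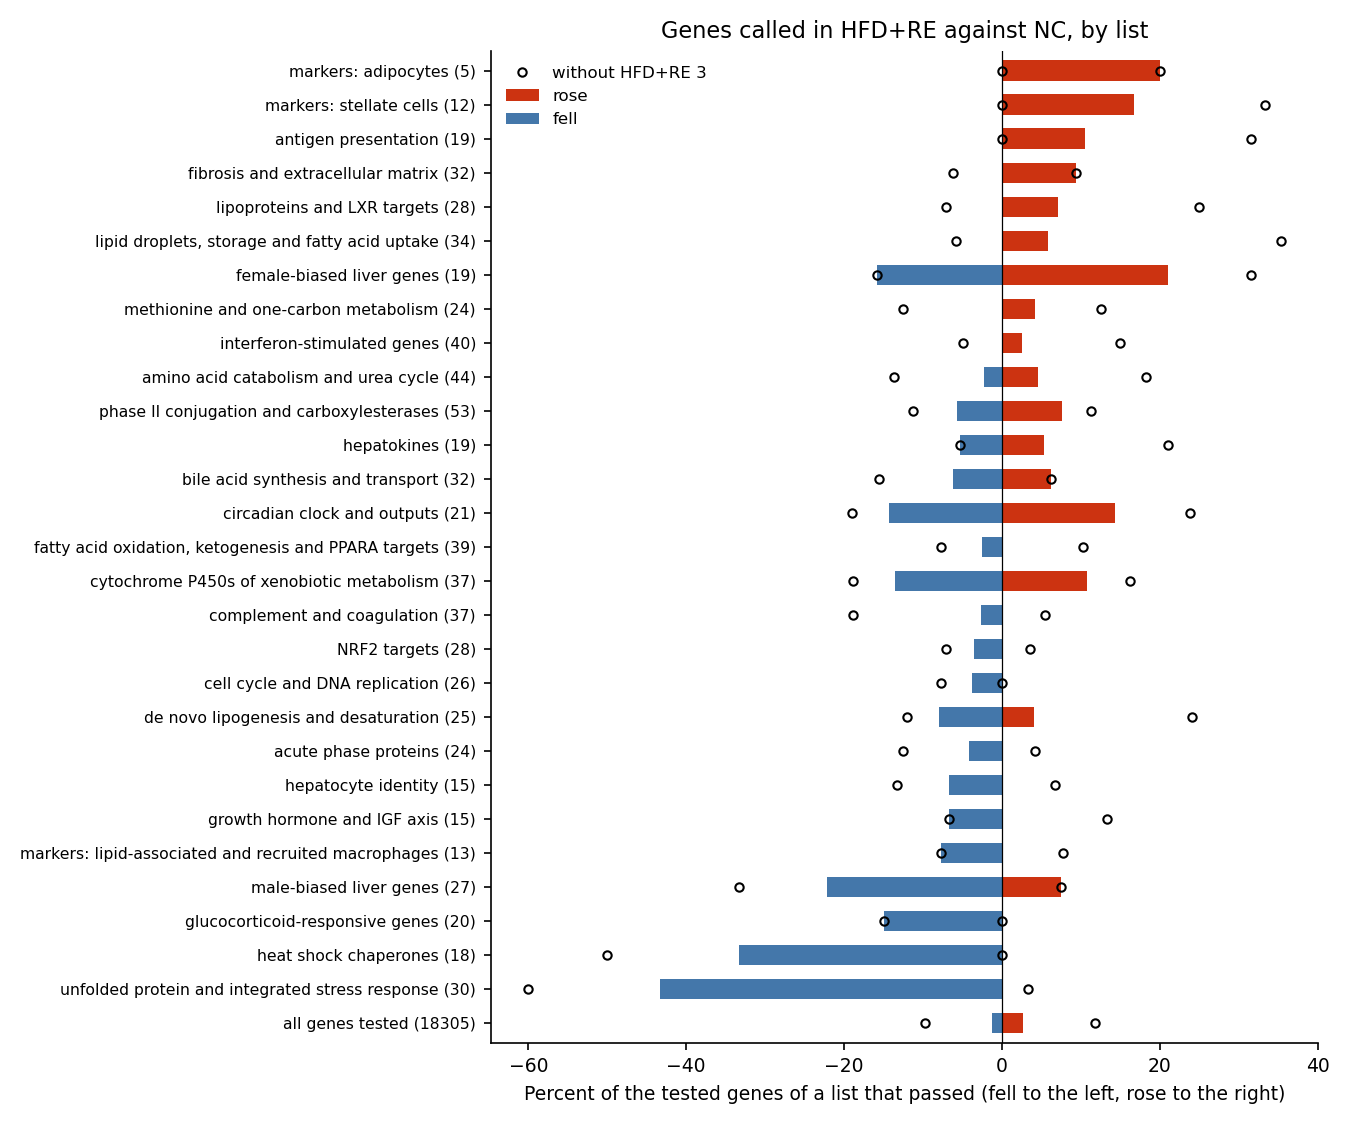
Bars give the percent of the tested genes of each list (number tested in brackets) that rose (red, to the right) or fell (blue, to the left) in HFD+RE against NC, for lists with at least 5 tested genes and 1 call, and circles give the same without HFD+RE 3. The unfolded protein and heat shock lists, at 43.3% and 33.3% fallen, reach farthest to the left; all genes tested are at 1.28% fallen and 2.67% risen.

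A set of 126 genes (0.688% of those tested, and 17.4% of the 724) was called in HFD+RE against NC and neither in HFD against NC, with 2851 calls (15.6%), nor in HFD+AE against NC, with 253 (1.38%). Of the 126, 78 rose and 48 fell. All 6 heat shock genes that fell were among them, as were Arntl, Dbp, Pdk4, Cdkn1a, Gpt, Abcg5, Ugdh, Cd14, Gstt1, Hsd3b2, Cyp2u1, Adrb3 and Derl3 of the lists. The 3 comparisons share the NC libraries, and a gene can pass in one and narrowly miss in another: 51 of the 126 had an adjusted p under 0.1 in HFD against NC. The difference itself was therefore tested. None of the 126 passed in HFD+RE against HFD (smallest adjusted p = 0.12 in edgeR's quasi-likelihood test, for Cdkn1a) or in HFD+RE against HFD+AE (smallest 0.56). At an unadjusted p under 0.05, 64 differed from HFD, 36 from HFD+AE and 23 from both, and DESeq2 called 12 and 2. In that test no gene of the 126 was thus shown to differ from the other high-fat groups. The size of the set was 1341 without HFD+RE 3, 5 without HFD+RE 4, 15 without HFD+RE 5, 36 without NC 4, 59 without NC 2, 61 without NC 5, 249 without HFD 3 and 340 without HFD+AE 3.

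Of the set, 82 genes had groups that did not overlap, a mean log2 CPM above 1 and no predicted name. The 10 of them that lay farthest from both other high-fat groups in the direction of their change are given here. Members outside this filter, such as Hspa1a, lay as far or farther. Hspa1b had log2 changes against NC of -3.45 in HFD+RE, -0.48 in HFD and -1.90 in HFD+AE. It was at 29.4, 59.9 and 28.2 CPM in HFD and 23.6, 11.1 and 9.29 CPM in HFD+AE, above every HFD+RE library, and its difference of HFD+RE from HFD was -2.97 (adjusted p = 0.13). Cdkn1a, the cell cycle inhibitor p21 (chr17:29090976-29100727), was at 8.98, 6.96 and 6.89 CPM in NC and at 1.8, 2.83 and 1.08 CPM in HFD+RE (log2 change -2.00, SE 0.34, adjusted p = 0.01). It was at 6.05, 6.96 and 7.57 CPM in HFD and 4.81, 2.39 and 4.28 CPM in HFD+AE, and differed from HFD by -1.85 (adjusted p = 0.12). The HFD libraries lay around the NC level, and HFD+AE 2 was below the highest HFD+RE library.

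Pdk4 was at 3.93, 7.82 and 3.12 CPM in HFD and 5.58, 6.22 and 6.67 CPM in HFD+AE, so that the 3 HFD+RE libraries were the lowest of the 12. Its differences from HFD and HFD+AE were -1.47 and -1.78 (adjusted p = 0.28 and 0.56). P4ha1, a subunit of the prolyl hydroxylase that matures collagen, was at 18.7, 55.2 and 28.6 CPM in NC and at 10.3, 9.25 and 7.56 CPM in HFD+RE (log2 change -1.92, SE 0.34, adjusted p = 0.012), and its paralog P4ha2 at 7.84, 9.2 and 13.8 CPM in NC and at 3.18, 4.5 and 4.01 CPM in HFD+RE (log2 change -1.40, SE 0.28, adjusted p = 0.018). Their log2 changes were -0.71 and -0.55 in HFD and -1.15 and -0.47 in HFD+AE, against NC. Cd14, a co-receptor for endotoxin, was at 2.71, 2.26 and 4.22 CPM in NC and at 1.25, 1.14 and 1.07 CPM in HFD+RE (log2 change -1.41, SE 0.35, adjusted p = 0.042), with -0.39 in HFD and -0.32 in HFD+AE. Mid1ip1, which promotes acetyl-CoA carboxylase activity, was at 24.6, 25.7 and 21.6 CPM in NC and at 53.7, 37.5 and 74.6 CPM in HFD+RE (log2 change 1.21, SE 0.27, adjusted p = 0.03), with 0.53 and 0.41. In P4ha1, P4ha2, Cd14 and Mid1ip1 the 3 HFD+RE libraries lay apart from the NC libraries. Without HFD+RE 5 the adjusted p was 0.06 for P4ha1, 0.067 for P4ha2, 0.14 for Cd14 and 0.12 for Mid1ip1. The remaining 3 were Hsph1, Arntl and Dbp, with log2 changes against NC of -1.22, -1.80 and 1.12 in HFD and -1.24, -1.70 and 1.37 in HFD+AE.

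**Figure D5:**
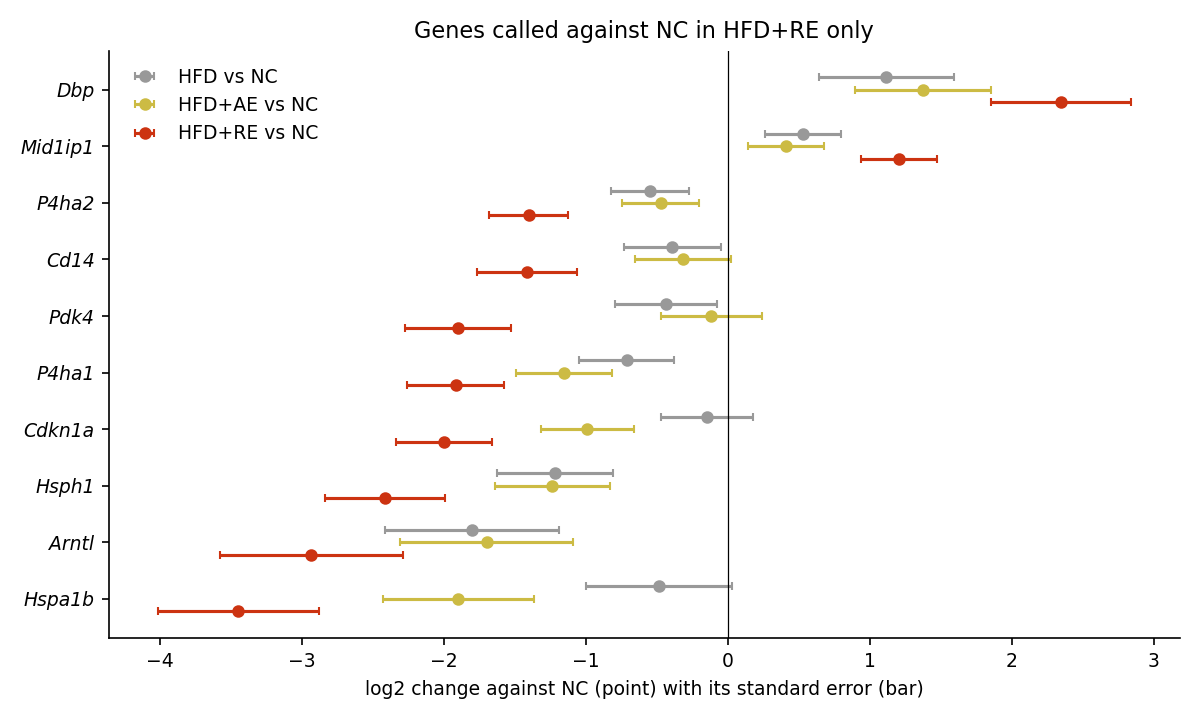
Points give the log2 change against NC, with its standard error as a bar, in HFD (grey), HFD+AE (yellow) and HFD+RE (red) for 10 genes called in HFD+RE alone. The 3 contrasts share the NC libraries, and in each row the red point lies farthest from 0, as the choice of these genes fixes.

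Against HFD+AE no gene passed in edgeR's quasi-likelihood test over all 18305 genes, 1468 had an unadjusted p under 0.05 and DESeq2 called 24. Several genes named here overlap a gene on the other strand, among them Srebf1 (Rai1), Dbp (Sphk2), Abcg5 (Abcg8), Elovl3 (Pitx3), Psmb9 (Tap1), Prodh (Dgcr6), Angptl8 (Dock6) and Hsd3b5 (Zfp697), and with the strand setting not given their reads cannot be told apart.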

How the data were processed

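RNA-seq libraries of mouse liver were analysed from the table of raw counts that the authors deposited, 1 row a gene, with no normalization. featureCounts 2.0.6 made these counts, per the file headers. The submitters' processing notes also list fastp, HISAT2 2.2.1, DESeq2 1.40.1 and the mm10 build. The sources used here give no strand setting, annotation release or rule for reads that map to several places. In every library more genes had a count of 2 (2258 to 2506 genes) than a count of 1 (529 to 937); they do not say whether both reads of a pair were counted. Total counts of the 6 libraries compared ran from 47823607 to 77665729. No 2 of these 6 libraries agreed within sampling noise (smallest chi-square per degree of freedom 146).

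Tests used edgeR 4.0.16 (R 4.3.3): the quasi-likelihood F-test with robust dispersion and TMM scaling, on the 18305 of 55291 genes that its default filter by group kept. The 4 group means were fitted in 1 model of the 12 libraries, which thus share their estimate of spread. Genes with a Benjamini-Hochberg adjusted p below 0.05 were called. Log2 changes are fitted values, and the SE is the absolute log2 change divided by the square root of F. The fitted change of a gene with few counts depends on edgeR's prior count. The procedure was tested on simulated counts with 200 genes changed in HFD+RE. These held no length or GC trend and no library that departed from its group. They cannot show how such features affect the calls.

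Genes are named by a rule: the largest changes, up to 12 in each direction (called, no overlap between groups, mean log2 CPM above 1, no predicted name), up to 3 called members per gene list, 10 genes called in this comparison alone (same filters), ranked by distance from HFD and HFD+AE, and a list of genes given whether called or not. Not every gene the rule took is described. Some genes, among them a called clock gene, are not reported here. The other members of the endoplasmic reticulum, heat shock and clock lists, Med12l and Gm11752 were named after their values were seen. The members and gene lists were chosen with earlier results of these data known. Lists are described by counts and medians, with no test of the list.

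Alternatives were DESeq2 1.42.0 (size factors, and its Wald test), no low-count filter, a 2-fold threshold (TREAT), removal of length and GC trends (GC known for 98.1% of tested genes), the 2 groups alone, the replicate number as a block, and each library left out. Leaving out single HFD or HFD+AE libraries was chosen after seeing the data. Promoters are from a RefSeq table (GRCm38.p6), matched by symbol; genes absent from it are not shown.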

Additional observations from a re-analysis of the deposited data

Results flagged for a closer look

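The effect of the 2 high-fat groups against NC differed for 2 genes in edgeR's quasi-likelihood test of HFD+RE against HFD. For Hsd3b5 the difference was 7.97 on the log2 scale (adjusted p = 0.0030): HFD+RE was at 124, 25.2 and 112 CPM. For Themis it was -2.26 (adjusted p = 0.0063), and Themis was higher than NC in both groups.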

How the results depend on the processing

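Scaling by DESeq2's size factors gave 718 called genes (457 rose and 261 fell) and 125 called in HFD+RE alone. With DESeq2's Wald test the counts were 1940 (1154 rose and 786 fell) and 414. Without the low-count filter 1073 were called, of which 375 fell, with 237 in HFD+RE alone. With the NC and HFD+RE libraries only, 110 were called (65 rose and 45 fell). Tested against a 2-fold change, 7 were called (4 rose and 3 fell), with 0 in HFD+RE alone; these 7 were Osbpl3, Stap1, Themis, Med12l, Gm11752, Cyp3a11 and Cyp2c55. Called genes had a median length of 2812 bases if they rose and 4532 if they fell, against 3548 for all genes tested. With length trends removed 801 were called, and with length and GC trends removed 1119, of which 451 fell, with 227 in HFD+RE alone. Of the 72 called genes of the naming rule, these fits kept 69 and 65. With both trends removed, Mup1, Cyp8b1, Ugdh, Gpt, Angptl8, Adrb3 and Mid1ip1 were not called (adjusted p from 0.0503 to 0.103). The log2 change of Fitm1 was then 0.92. Without both HFD+AE 3 and HFD+RE 3 the counts were 5989 (3200 rose and 2789 fell) and 1754. Genes called in HFD+RE alone that also passed against HFD and against HFD+AE numbered 0, and 1 with DESeq2's Wald test, without the filter (Pdk4 in both) and without HFD+AE 3 and HFD+RE 3 (Zfp771).

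Leaving out 1 library at a time gave 112 to 3983 called genes, 79 to 2180 that rose, 29 to 1803 that fell and 5 to 1341 called in HFD+RE alone; the lowest counts came without HFD+RE 4 (without NC 4 for those that rose) and the highest without HFD+RE 3. The cause was not tested. No direction of a called gene named here was reversed under these alternatives.

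With the replicate number as a block, 15 genes were called (11 rose and 4 fell), 5 of them in HFD+RE alone. The numbers 4 and 5 occur in both groups, but the deviations of same-numbered libraries correlated at -0.09 and 0.16, so the numbers are not known to pair animals.

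At 3 libraries a group, differences such as that of Cidea (log2 change 3.03, adjusted p = 0.05) were not resolved, and genes at few counts, such as Npas2 with 5 counts in HFD+RE, have fitted changes that rest on few reads.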
